A study of Mus musculus with 16 samples.

Results

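mmu-miR-101a-3p and mmu-miR-101b-3p, called miR-101a-3p and miR-101b-3p here, are the 3p products of a pair of microRNA genes on different mouse chromosomes. They were taken by name, as 2 of the 1978 mature names in the count files, and were followed over 16 small-RNA libraries of dissected mouse blastocysts. Both had been chosen by their counts in these same libraries, which showed a balance that differed between the groups. Their levels and their ratio are therefore given as descriptions. Where the fit over all microRNAs called a member, the call rests on the values that chose the member, so it is set beside the share called overall and nothing is read from it. Laser cuts had parted each blastocyst: the polar piece carries the inner cell mass, and the mural piece is trophectoderm. Polar pieces came from diapaused blastocysts (n = 3 libraries), from mTOR-inhibited blastocysts (mTORi, n = 3) and from WT blastocysts (n = 2). Mural pieces came from the same kinds of blastocyst in the same numbers. Diapause had been set up in vivo and blastocysts were collected at EDG 7.5, whereas WT blastocysts were at embryonic day 4.5 and the labels give no day for mTORi. Stage and treatment cannot be told apart in any comparison with WT.

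As background, a microRNA guides Argonaute to messenger RNAs that pair with its seed, the bases near its 5′ end, and lowers their output. miR-101 is best known as a repressor of Ezh2, the histone methyltransferase of the Polycomb machinery, and in human tumours its loss goes with high EZH2. Diapause is the reversible arrest of the blastocyst before implantation. mTOR is a growth-promoting kinase that senses nutrients, and its inhibition holds mouse blastocysts in a paused state in culture.

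The sequences show how close the pair is and which base tells a read of one member from a read of the other. The mature 3p products are given with miR-101c and miR-144-3p, the names closest to miR-101a-3p, from the RefSeq annotation of GRCm38.p6, with bases 2 to 8 (the seed) in capitals.
miR-101a-3p: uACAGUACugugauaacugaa
miR-101b-3p: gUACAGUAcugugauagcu
miR-101c: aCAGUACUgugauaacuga
miR-144-3p: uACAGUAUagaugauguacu
The annotated miR-101b-3p begins 1 base before miR-101a-3p, so that the seeds read ACAGUAC in miR-101a-3p and UACAGUA in miR-101b-3p. Over the 18 bases that align there is 1 substitution, A16G, counted from the 5′ end of miR-101a-3p with its base first. The 15 bases before it are the same in both. A read that stops before that base matches both names, and a read that covers it tells them apart. How the deposited counts treated shared reads is not given in the sources used here.

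The hairpins place these products in their precursors, with the 3p product in capitals.
Mir101a hairpin: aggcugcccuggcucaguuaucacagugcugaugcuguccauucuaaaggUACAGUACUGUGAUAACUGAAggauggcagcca
Mir101b hairpin: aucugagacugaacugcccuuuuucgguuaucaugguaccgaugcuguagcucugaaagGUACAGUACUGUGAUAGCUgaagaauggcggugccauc
Mir101a lies at chr4:101346945-101347027 on the minus strand (GRCm38), in an exon of the lincRNA gene E130102H24Rik. Its nearest coding genes are Ak4, an adenylate kinase, at 72250 bases and Jak1, a cytokine receptor kinase, at 81663 bases. Mir101b lies at chr19:29135279-29135375 on the plus strand, in an intron of Rcl1, which acts in ribosomal RNA processing. The next annotated microRNA gene is 1689115 bases from Mir101a and 1126066 bases from Mir101b. The longest stretch that the hairpins share is 20 bases.

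Reads of the pair came from the 3p arms almost alone. miR-101a-3p held 722 counts over the 16 libraries (13 to 139 each) and miR-101b-3p held 824 (9 to 123 each). The other arms held 0 counts for miR-101a-5p and 2 for miR-101b-5p, both in polar WT replicate 1. miR-101c, whose annotated sequence lies whole within bases 2 to 20 of miR-101a-3p, held 4 counts in 4 libraries. Names that share bases 2 to 7 with a member were as scarce. miR-144-3p, an erythroid microRNA that shares them with miR-101a-3p, had 6 counts, and miR-582-5p, which shares them with miR-101b-3p, had 3.

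Total counts ran from 1744 in polar WT replicate 1 to 20051 in mural diapaused replicate 2, which sets how well each ratio is known. Of all names, 102 passed the filter on low counts, and both members were among them. Levels are CPM, counts of the tested names brought to a common library size by TMM scaling. For the mural mTORi libraries the titles leave out the part and hold the word diapaused. Their tissue and treatment labels read mural and mTOR inhibited, and the grouping follows these. Polar mTORi replicate 3 stood apart, with 25.8% of its counts in miR-203-3p and miR-205-5p, known from stratified epithelium, against 0.341% to 1.28% in the 13 libraries outside polar mTORi. The polar label was checked with miR-302/miR-367, known from the epiblast: its 5 listed members held 15, 2 and 14 counts in polar diapaused, mTORi and WT libraries, which differ in depth, and 0 in every mural library. Polar mTORi libraries ran from 0 to 0.0916%, so these names do not tell every polar mTORi library from a mural one. miR-322-5p, miR-503-5p and miR-351-5p, high in mural trophectoderm, held 0.229% to 1.60% of polar and 1.99% to 6.64% of mural counts. All are bulk libraries, so fewer cells of a type and less RNA per cell cannot be told apart. The labels do not say how many embryos a library holds, so the spread between libraries may be technical.

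Averaged over the 6 groups, the pair sat side by side in abundance. miR-101a-3p ranked 30 of 102 at 6976 CPM and miR-101b-3p ranked 31 at 6774 CPM, between miR-191-5p at 7010 CPM and let-7b-5p at 6652 CPM. The near tie hid group ranks that ran apart. miR-101a-3p ranked 46, 19 and 27 in polar diapaused, mTORi and WT, and 27, 19 and 44 in mural diapaused, mTORi and WT. In the same order miR-101b-3p ranked 22, 34 and 42, then 28, 24 and 22.

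miR-101a-3p was the member that moved most between groups. In polar fragments it had 4196, 2227 and 3496 CPM in the diapaused libraries, 5723, 8036 and 17812 CPM in the mTORi libraries, and 6747 and 5765 CPM in the WT libraries. All 3 diapaused libraries lay below every other polar library, and the highest mTORi value was that of replicate 3. In mural fragments it had 9139, 8516 and 6955 CPM in the diapaused libraries, 8115, 8784 and 12495 CPM in the mTORi libraries, and 3116 and 4425 CPM in the WT libraries. Here both paused groups lay above WT with no overlap.

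miR-101b-3p varied less, and partly the other way. In polar fragments it had 7327, 7897 and 7653 CPM in the diapaused libraries, 7869, 5921 and 4631 CPM in the mTORi libraries, and 4671 and 3706 CPM in the WT libraries. The diapaused libraries lay above both WT libraries, and mTORi overlapped each of the other groups. In mural fragments it had 6327, 7536 and 7458 CPM in the diapaused libraries, 6922, 5765 and 8549 CPM in the mTORi libraries, and 7322 and 9687 CPM in the WT libraries, with all 3 groups overlapping. The pooled SD of a library about its group mean was 0.46 on the log2 scale for miR-101a-3p and 0.24 for miR-101b-3p.

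**Figure D1:**
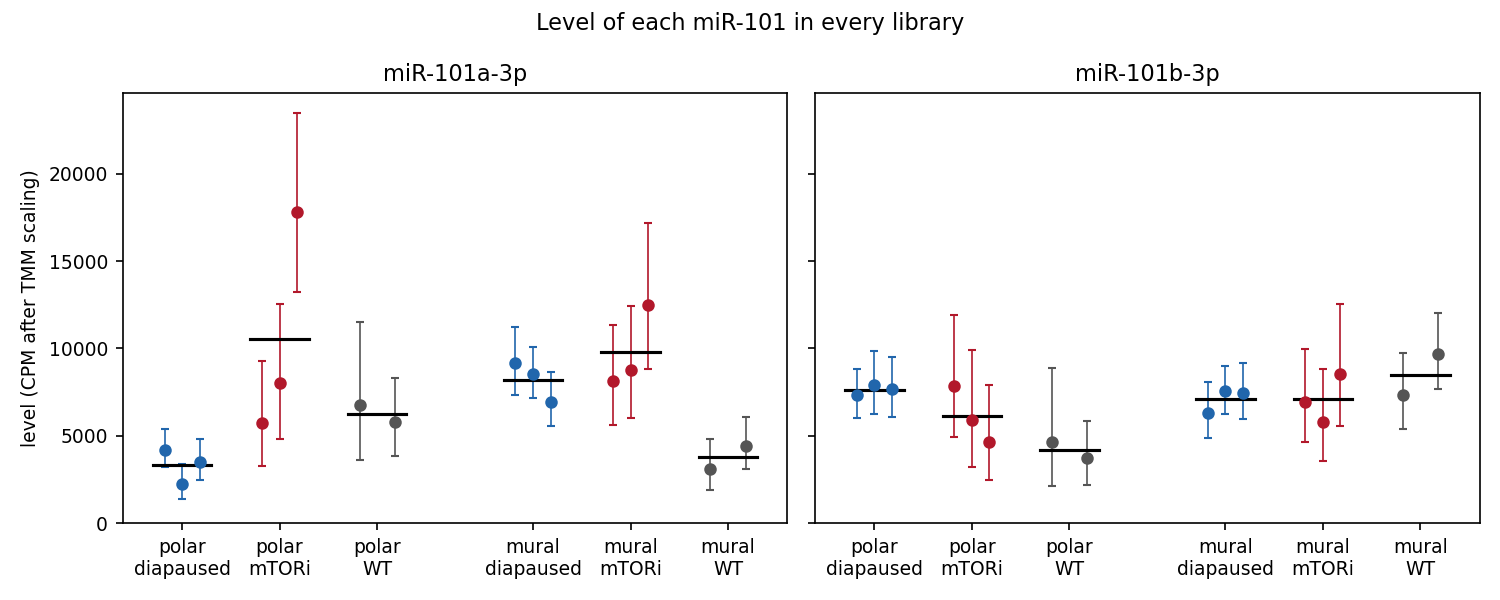
Level of miR-101a-3p (left) and miR-101b-3p (right) in CPM after TMM scaling, with 1 point for each library, its exact 95% Poisson interval as a bar and the group mean as a black line. miR-101a-3p is low in polar diapaused and mural WT libraries, at 2227 to 4425 CPM, while miR-101b-3p has its lowest values in polar WT, at 3706 and 4671 CPM, and in polar mTORi replicate 3, at 4631 CPM.

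Ordered by mean level, miR-101a-3p ran from polar mTORi (10523 ± 6417 CPM, SD, n = 3) through mural mTORi (9798 ± 2359, n = 3), mural diapaused (8204 ± 1125, n = 3), polar WT (6256 ± 694, n = 2) and mural WT (3770 ± 926, n = 2) to polar diapaused (3307 ± 998, n = 3). Neighbours in that order were free of overlap only between mural diapaused and polar WT and between polar WT and mural WT. Without replicate 3 the polar mTORi mean was 6879 CPM, which lies between mural diapaused and polar WT. The order for miR-101b-3p was mural WT (8504 ± 1672 CPM, SD, n = 2), polar diapaused (7626 ± 286, n = 3), mural diapaused (7107 ± 676, n = 3), mural mTORi (7078 ± 1399, n = 3), polar mTORi (6140 ± 1630, n = 3) and polar WT (4189 ± 682, n = 2). Every pair of neighbours in it overlapped.

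The ratio of the members is free of the scaling, since both counts come from the same library. The ratio of miR-101a-3p to miR-101b-3p counts was 0.573, 0.282 and 0.457 in polar diapaused libraries (63 to 110, 22 to 78 and 37 to 81 counts). It was 0.727, 1.36 and 3.85 in polar mTORi libraries (16 to 22, 19 to 14 and 50 to 13 counts). Polar WT libraries gave 1.44 and 1.56 (13 to 9 and 28 to 18 counts). All polar diapaused libraries thus held more miR-101b-3p, both polar WT libraries held more miR-101a-3p, and polar mTORi libraries fell on either side.

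In mural fragments the balance of diapaused and WT groups, by summed counts, lay the other way round, and all 3 mTORi libraries held more miR-101a-3p. The ratio was 1.44, 1.13 and 0.933 in mural diapaused libraries (91 to 63, 139 to 123 and 83 to 89 counts). Mural mTORi libraries gave 1.17, 1.52 and 1.46 (34 to 29, 32 to 21 and 38 to 26 counts). Mural WT libraries gave 0.426 and 0.457 (20 to 47 and 37 to 81 counts). Both paused groups lay above WT with no overlap, and the mural WT ratios fell within the range of the polar diapaused ones.

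As a share of the pair's summed counts, miR-101a-3p made up 31.2% in polar diapaused (exact Clopper-Pearson 95% interval 26.6% to 36.1%), 63.4% in polar mTORi (54.7% to 71.6%) and 60.3% in polar WT (47.7% to 72.0%). Its mural shares were 53.2% in diapaused (49.1% to 57.3%), 57.8% in mTORi (50.2% to 65.1%) and 30.8% in WT (24.2% to 38.0%). These intervals cover counting error only. The mean and SD over libraries were 29.9% ± 7.31 (n = 3), 59.7% ± 18.7 (n = 3) and 59.98% ± 1.26 (n = 2) in polar diapaused, mTORi and WT, and 53.5% ± 5.43 (n = 3), 57.9% ± 3.45 (n = 3) and 30.6% ± 1.06 (n = 2) in mural diapaused, mTORi and WT. Without replicate 3, the polar mTORi ratio was 0.972, against 1.73 from the summed counts of all 3 libraries.

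**Figure D2:**
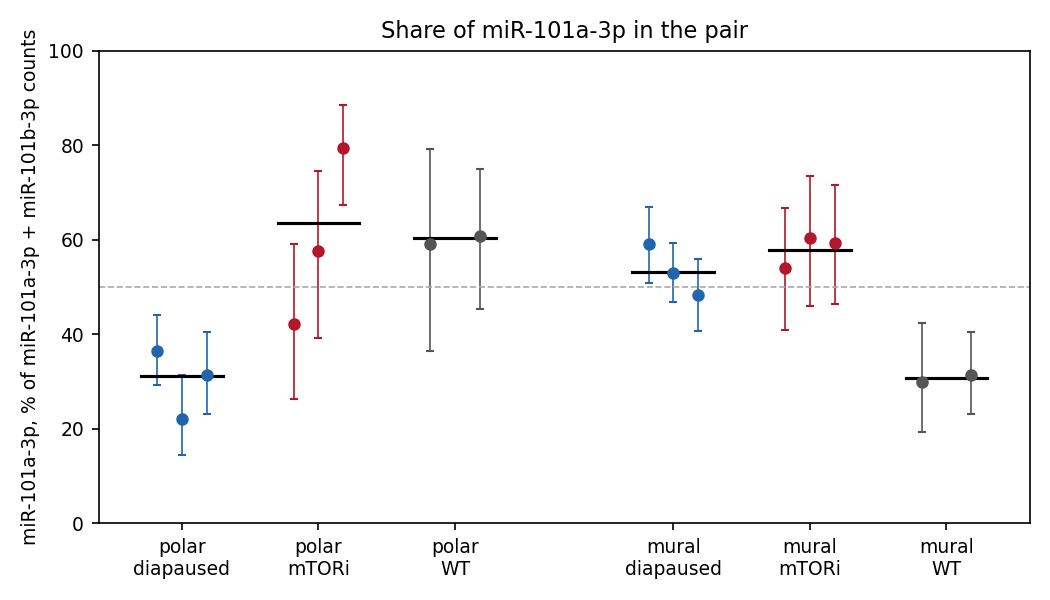
miR-101a-3p as a percentage of the summed miR-101a-3p and miR-101b-3p counts, with 1 point for each library, its exact 95% Clopper-Pearson interval as a bar and the share of the group's summed counts as a black line; the dashed line marks equal counts. Polar diapaused libraries sit at 22.0% to 36.4% and mural WT libraries at 29.9% and 31.4%, below the other groups, and polar mTORi libraries spread from 42.1% to 79.4%.

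The first comparison asks what diapause changes in each part. In polar fragments the fitted difference, diapaused minus WT, was -0.90 for miR-101a-3p (log2, SE 0.47) and 0.89 for miR-101b-3p (SE 0.38), beside a median of 0.10 over all 102 tested microRNAs. In mural fragments it was 1.11 for miR-101a-3p (SE 0.46) and -0.26 for miR-101b-3p (SE 0.34), beside a median of 0.19. No member was called in either part by edgeR's quasi-likelihood test at an adjusted p under 0.05 or by DESeq2. An unadjusted edgeR p under 0.05 was found for 1 of 2 in each part (miR-101b-3p in polar, miR-101a-3p in mural). Such a p was common, with 26 of the 102 tested microRNAs in polar and 21 in mural fragments. In polar fragments the epiblast markers of miR-302/miR-367 differed in the same comparison, at 0.0210% to 0.0884% of counts in diapaused and 0.142% to 0.401% in WT libraries. Of all tested microRNAs, 5.88% were called higher and 1.96% lower in polar, and 7.84% higher and 1.96% lower in mural fragments. The polar split was 6 higher and 2 lower with TMM and 6 and 7 with RLE size factors, and the mural split was 8 and 2 with TMM and 3 and 2 with either RLE or library size alone. The median of all tested microRNAs in mural fragments moved to -0.05 with RLE and -0.09 with library size alone, and the difference of miR-101b-3p moved to -0.51 and -0.57.

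Libraries that do not overlap between groups of 2 and 3 were common here, and the members are read against that. In polar diapaused against WT libraries, 27.5% of tested microRNAs were higher and 17.6% lower without overlap, as were miR-101b-3p (higher) and miR-101a-3p (lower). In mural diapaused against WT libraries the shares were 32.4% higher and 10.8% lower, and miR-101a-3p was among the higher ones. The ratio of the pair did not overlap in either part, and 45.8% (polar) and 44% (mural) of all 5151 ratios between 2 tested microRNAs did not overlap either. A ratio that was free of overlap in both parts but ran in opposite directions, as that of the pair did, occurred in 171 of the 5151, or 3.32%. The pair was picked for this balance, so the share describes how common the pattern is and is no support for it.

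The summed level of the pair was fitted after the data had been seen by adding both rows. Between diapaused and WT it differed less than either member in polar fragments. In mural fragments it differed less than miR-101a-3p but not less than miR-101b-3p. Polar diapaused libraries held 11523, 10125 and 11148 CPM for the sum and polar WT libraries 11418 and 9471 CPM, a difference of 0.08 on the log2 scale (SE 0.33). Leaving out polar WT replicate 2 took it to -0.22. Mural diapaused libraries held 15467, 16053 and 14413 CPM and mural WT libraries 10437 and 14112 CPM, a difference of 0.32 (SE 0.31) that was 0.0011 with library size alone. The mural libraries did not overlap, although the gap between 14413 and 14112 CPM is small beside the spread of the WT libraries.

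**Figure D3:**
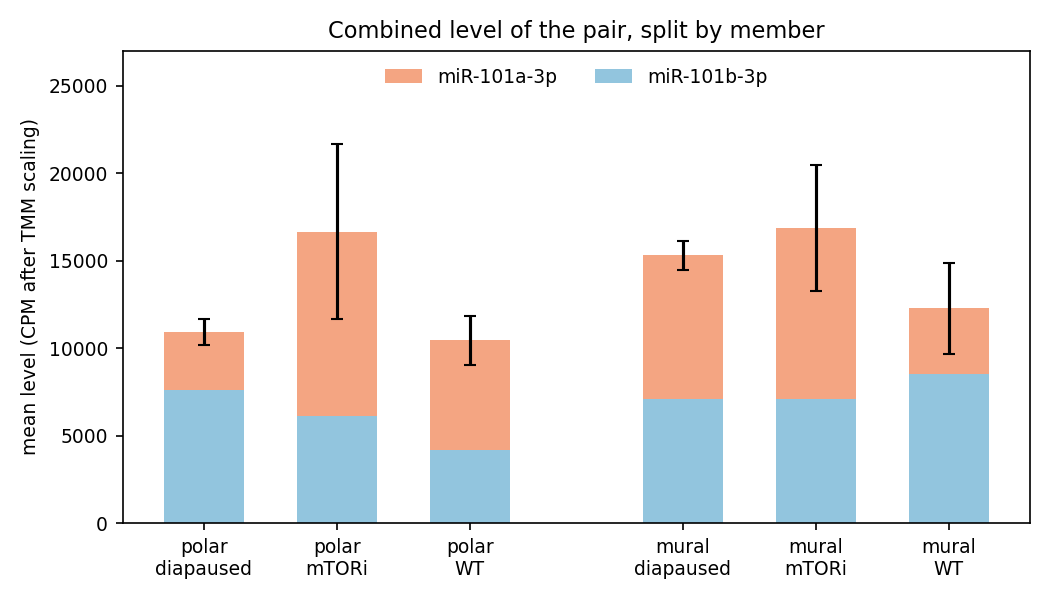
Mean level of the pair in each group in CPM after TMM scaling, stacked as miR-101b-3p (blue, bottom) and miR-101a-3p (orange, top), with the SD of the summed level over 2 or 3 libraries as a bar. Polar diapaused and polar WT bars are of like height, at 10932 ± 724 and 10445 ± 1377 CPM, with different make-up.

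The mTOR-inhibited blastocysts were set against WT to ask how an induced pause compares. In mural fragments the difference, mTORi minus WT, was 1.36 for miR-101a-3p (log2, SE 0.47) and -0.27 for miR-101b-3p (SE 0.35), beside a median of -0.06. Neither was called by edgeR or DESeq2 over all groups, and miR-101a-3p was among 28 of the 102 tested microRNAs with an unadjusted edgeR p under 0.05. A fit of the mural mTORi and WT libraries alone did call it, on values that were part of the choice, among 11 called higher and 10 lower of 102. The stratified epithelial pair held 0.941% to 1.28% of mural mTORi and 0.575% to 0.634% of mural WT counts, without overlap, though edgeR called neither name. Of all tested microRNAs 5.88% were called higher and 5.88% lower in the fit over all groups (6 and 6 with TMM, 4 and 7 with RLE), and 20.6% were higher without overlap, as miR-101a-3p was. The pair's ratio did not overlap, as in 46.4% of all ratios. Diapaused and mTORi are set against the same WT libraries here, so their differences share that error.

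In polar fragments the mTORi minus WT difference was 0.77 for miR-101a-3p (log2, SE 0.48) and 0.58 for miR-101b-3p (SE 0.40), beside a median of 0.18, and libraries overlapped for both members and for the ratio. Of all tested microRNAs 21.6% were higher and 23.5% lower without overlap, and 40.6% of all ratios did not overlap. No member was called by edgeR or DESeq2, and none had an unadjusted edgeR p under 0.05, which 43 of the 102 tested microRNAs had. By comparison 12.7% of tested microRNAs were called higher and 9.8% lower (13 and 10 with TMM, 11 and 15 with library size alone). The stratified epithelial pair held 0.719% to 25.8% of polar mTORi and 0.459% to 0.526% of polar WT counts, and edgeR called both names higher, but neither without polar mTORi replicate 3 or without either polar WT library. The epiblast markers held 0 to 0.0916% of polar mTORi and 0.142% to 0.401% of polar WT counts. Without polar mTORi replicate 3 the difference of miR-101a-3p was 0.07, and without polar WT replicate 2 that of miR-101b-3p was 0.22. The summed level was 13591, 13957 and 22443 CPM in polar mTORi libraries, against 11418 and 9471 CPM in polar WT, a difference of 0.69 (SE 0.33) that was 0.32 without mTORi replicate 3. The mural sum was 15037, 14549 and 21043 CPM in mTORi libraries, against 10437 and 14112 CPM in WT, a difference of 0.45 (SE 0.32).

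Polar and mural fragments were then compared within each kind of blastocyst. In WT the difference, polar minus mural, was 0.71 for miR-101a-3p (log2, SE 0.52) and -1.05 for miR-101b-3p (SE 0.41), with no overlap for either. edgeR called neither, and miR-101b-3p was among 27 of the 102 tested microRNAs with an unadjusted p under 0.05. DESeq2 called miR-101b-3p, chosen on these values, lower, among 10 called lower and 10 called higher of 102. With a minimum count of 30 edgeR called it lower as well, among 9 called lower and 2 called higher of 51. In WT, edgeR over all groups called 3.92% of tested microRNAs higher and 6.86% lower in polar fragments. Without overlap, 26.5% were higher and 25.5% lower, and 58.2% of all ratios did not overlap. In diapaused blastocysts the difference was -1.30 for miR-101a-3p (SE 0.40) and 0.10 for miR-101b-3p (SE 0.30). Here miR-101a-3p, chosen on these values, was called lower in polar fragments by edgeR, among 13.7% of tested microRNAs called lower and 4.9% called higher. DESeq2 called miR-101a-3p lower too, among 15 called lower and 15 called higher of 102. Its libraries did not overlap, as for 23.5% of tested microRNAs that were lower and 18.6% that were higher, and neither did the ratio of the pair, as for 44.2% of all ratios. edgeR lost that call with RLE size factors, library size alone, no filter and a minimum count of 30, and on leaving out any library but mural diapaused replicate 3. Its difference was -0.83 with library size alone and -1.09 without polar diapaused replicate 2. In mTORi blastocysts the difference was 0.11 for miR-101a-3p (SE 0.41) and -0.20 for miR-101b-3p (SE 0.33), and neither was called by edgeR or DESeq2 or had an unadjusted edgeR p under 0.05. There 19 of the 102 tested microRNAs had such a p. Of the tested microRNAs 2.94% were called higher and 1.96% lower, and 13.7% were higher and 6.86% lower without overlap. Both members and their ratio overlapped, while 20.7% of all ratios did not. Without polar mTORi replicate 3 the value for miR-101a-3p was -0.66.

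Diapaused and mTORi blastocysts were set against each other to compare natural with induced pausing. The labels give no day for mTORi, so the kind of pause and the stage cannot be told apart here. Depth differed too, at 9049 to 20051 total counts in diapaused and 2184 to 4386 in mTORi libraries. In polar fragments, diapaused minus mTORi was -1.66 for miR-101a-3p (log2, SE 0.42). edgeR called it lower on values that were part of the choice, among 7.84% of tested microRNAs called lower and 7.84% higher. DESeq2 called it lower too, among 13 called lower and 8 called higher of 102. The edgeR call was lost in a fit of these 2 groups alone and on leaving out polar diapaused replicate 2 or 3. It was also lost on leaving out polar mTORi replicate 3, which took the difference to -1.11. For miR-101b-3p it was 0.31 (SE 0.32). miR-101a-3p was lower without overlap, as were 10.8% of tested microRNAs, with 21.6% higher, and the ratio of the pair did not overlap, as for 30.5% of all ratios. In mural fragments the differences were -0.25 for miR-101a-3p (SE 0.40) and 0.01 for miR-101b-3p (SE 0.31), neither was called by edgeR or DESeq2 or had an unadjusted edgeR p under 0.05, and edgeR called 0.98% of tested microRNAs higher and 0 lower. Among the 102 tested, 26 had an unadjusted edgeR p under 0.05. Libraries overlapped for both members and the ratio, while 29.4% of tested microRNAs were higher and 11.8% lower without overlap, and 35.5% of all ratios did not overlap. Whether the gap between diapaused and mTORi differs between the parts was not tested.

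**Figure D4:**
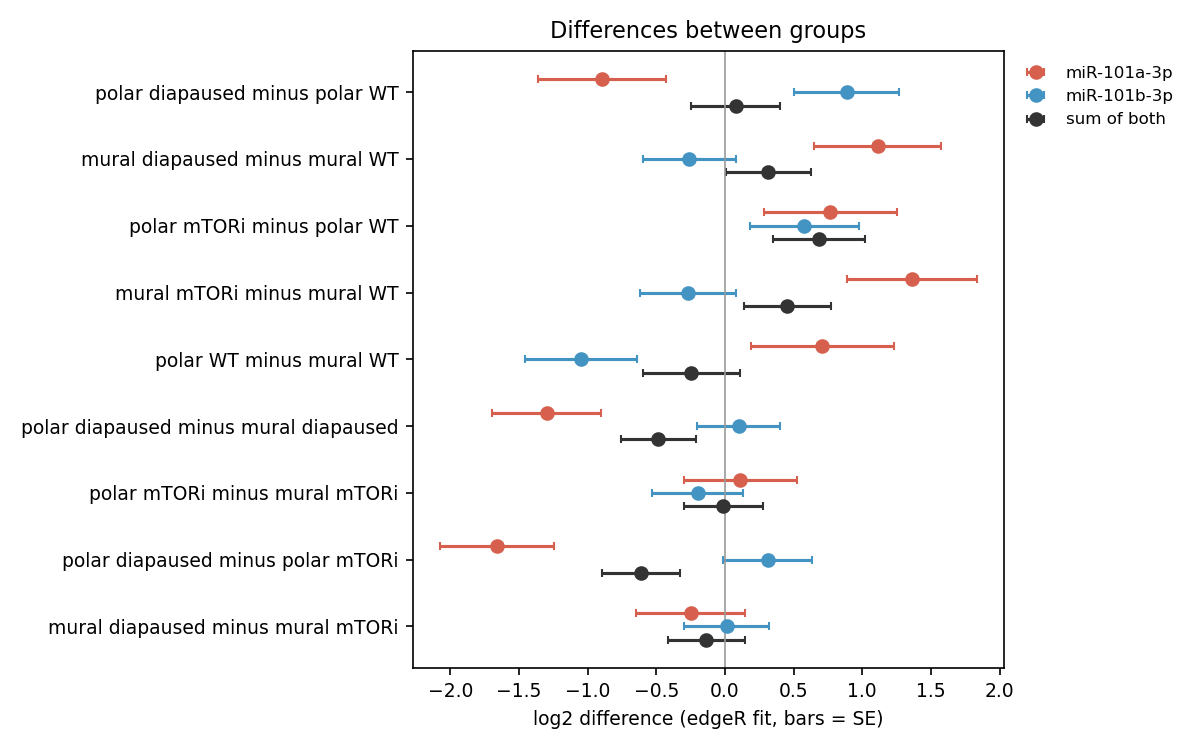
Log2 differences between groups for miR-101a-3p (red), miR-101b-3p (blue) and their sum (black), with the SE of the edgeR fit as bars and 0 as a grey line. In polar diapaused minus polar WT, at the top, the members lie at -0.90 and 0.89 and their sum at 0.08.

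Markers of other cells moved with some of these groups. The epiblast markers were lower in polar diapaused and polar mTORi than in polar WT libraries without overlap, which was not tested since none of the 5 names passed the filter, with 2, 4 and 2 of the 5 names at 0 in polar diapaused, mTORi and WT. The stratified epithelial pair, at 0 in no group, was higher in mTORi than in WT libraries of both parts without overlap. The mural markers miR-322-5p, miR-503-5p and miR-351-5p, none of them at 0 in any group, held 3.31% to 4.41% of mural diapaused, 1.99% to 2.64% of mural mTORi and 6.29% to 6.64% of mural WT counts, so that within mural fragments the groups with the higher miR-101a-3p share had the lower marker share. In polar fragments they held 0.575% to 1.21% of diapaused, 0.428% to 1.60% of mTORi and 0.229% to 0.769% of WT counts. The 3 erythroid names held 2.35% of polar WT replicate 2 (miR-486a-5p was at 0 in both polar WT libraries) and 0.115% of replicate 1. The 1 that passed the filter was called lower by edgeR in polar diapaused and polar mTORi minus WT (log2 -4.07 and -3.64). It was called higher in polar minus mural WT (3.63). Of all tested microRNAs, 1.96%, 9.8% and 3.92% were called in those directions. Without polar WT replicate 2 these differences were -0.62, -0.17 and 0.09. In mural diapaused and mTORi minus WT it was not called (-1.01 and 0.61). None of the 4 leukocyte names passed the filter. They held 0.115% to 0.304% of polar WT, 0.0105% to 0.0663% of polar diapaused and 0 to 0.275% of polar mTORi counts. In mural WT libraries they were at 0. The part of the epiblast, stratified epithelial, mural, erythroid and leukocyte markers in the level and balance of the pair was not tested.

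Other microRNAs linked to the same kind of targets were followed from lists, chosen with earlier results of these data known. The Ezh2-linked list had 10 names, 3 of which passed the filter: miR-26b-5p, let-7d-5p and let-7e-5p. Of the others, let-7a-5p, let-7c-5p and miR-26a-5p have more than 1 precursor gene in the mouse and were listed at 0, 0 and 1 count over all libraries. Of 53 names with more than 1 precursor, 10 had any count and 1 (miR-92a-3p) had over 6 in a library, so these names are uncertain in the files. In diapaused minus WT, 0 of the 3 were called in polar fragments by edgeR (1 at an unadjusted p under 0.05, and 1 by DESeq2) and 1 in mural fragments. That was let-7d-5p, a let-7 member and thus of a family known from differentiating cells, at 3752 ± 792 CPM (SD, n = 3) in mural diapaused and 491 ± 187 CPM (n = 2) in mural WT (log2 2.93, SE 0.65, edgeR adjusted p = 0.00819). In mTORi minus WT, miR-26b-5p rose in both parts. It was at 24653 ± 11711 CPM in polar mTORi (n = 3) and 9156 ± 2466 in polar WT (n = 2; log2 1.46, SE 0.41, edgeR adjusted p = 0.0187), and at 17070 ± 4721 CPM in mural mTORi (n = 3) and 5926 ± 432 in mural WT (n = 2; log2 1.53, SE 0.40, edgeR adjusted p = 0.0173). None of the list was called lower by edgeR in these 4 comparisons, DESeq2 called 1 lower in mural mTORi, and let-7e-5p differed by -1.52 and -1.44 in polar and mural mTORi minus WT (edgeR adjusted p = 0.0724 and 0.081). By edgeR, 5.88%, 7.84%, 12.7% and 5.88% of all tested microRNAs were called higher in polar diapaused, mural diapaused, polar mTORi and mural mTORi minus WT. In that order, 1.96%, 1.96%, 9.8% and 5.88% were called lower. DESeq2 called 8 higher and 7 lower of 102 in polar diapaused, and 6 higher and 8 lower in mural mTORi. An unadjusted edgeR p under 0.05 was found for 26 of 102 in polar diapaused. List medians were 0.68, 1.08, 0.45 and 1.53 in polar diapaused, mural diapaused, polar mTORi and mural mTORi minus WT, beside 0.10, 0.19, 0.18 and -0.06 over all tested. Leaving out mural WT replicate 2 ended the mural let-7d-5p call, and leaving out polar mTORi replicate 3, either polar WT library, either mural WT library or mural mTORi replicate 1 ended a miR-26b-5p call. Without polar mTORi replicate 3, 1 of the list was called lower in polar mTORi minus WT and the list median turned to -0.62, and without polar WT replicate 1 it was -0.18.

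The Dnmt3-linked list, of microRNAs known to repress DNA methyltransferases, had 7 names and 4 tested. miR-148a-3p rose in all 4 comparisons. In polar fragments it was at 27341 ± 1679 CPM in diapaused (SD, n = 3), 32948 ± 4479 in mTORi (n = 3) and 14580 ± 1401 in WT libraries (n = 2). The log2 differences from WT were 0.91 (SE 0.26, edgeR adjusted p = 0.0379) in diapaused and 1.18 (SE 0.27, edgeR adjusted p = 0.0131) in mTORi libraries. Mural levels were 18544 ± 1983 CPM in diapaused, 23090 ± 4240 in mTORi and 5674 ± 93.5 in WT libraries. Here the log2 differences were 1.71 (SE 0.27, edgeR adjusted p = 0.000793) and 2.02 (SE 0.28, edgeR adjusted p = 0.00012). miR-29a-3p was called higher in mTORi in both parts, with 46 counts in polar mTORi and 2 in polar WT, a ratio of 19.6 after scaling with an exact 95% counting interval of 5.12 to 167. Its mural level was 3177 ± 1354 CPM in mTORi and 239 ± 338 in WT (log2 3.49, SE 1.01, edgeR adjusted p = 0.0282). miR-152-3p was called higher in polar diapaused fragments, with 93 counts against 1 in polar WT (ratio 17.8, interval 3.11 to 710), and miR-148b-3p in polar mTORi (log2 1.90, SE 0.61, edgeR adjusted p = 0.0305). In all, 2, 1, 3 and 2 of the 4 were called higher and 0 lower in polar diapaused, mural diapaused, polar mTORi and mural mTORi minus WT. In that order, 5.88%, 7.84%, 12.7% and 5.88% of all tested microRNAs were called higher and 1.96%, 1.96%, 9.8% and 5.88% lower. Mural miR-148b-3p differed by -0.37 in diapaused and -0.89 in mTORi minus WT and was not called. Mural miR-152-3p, at 5, 0 and 2 counts in diapaused, mTORi and WT, differed by -0.05 and -3.13 and was not called. Over all 4 tested members the medians, in the order of those calls, were 1.12, 0.82, 2.50 and 0.57. All tested microRNAs had medians of 0.10, 0.19, 0.18 and -0.06. Medians over members with more than 3 counts in both groups were 1.12, 1.69, 1.54 and 2.02 (2, 3, 2 and 3 members). The polar diapaused count fell to 0 or 1 on leaving out any of its 5 libraries, the polar mTORi count to 1 and 0 without polar WT replicate 1 and 2, and the mural mTORi count to 1 without mTORi replicate 2 or 3 or WT replicate 1.

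The members did not follow each other over the libraries. Their log2 levels had a Pearson r of -0.36 and a Spearman rho of -0.36 over 16 libraries, a description over points that share library, depth and scaling. Without polar diapaused replicate 2 and polar mTORi replicate 3, the libraries farthest from the median of miR-101a-3p, r was -0.13. Among the other tested microRNAs, miR-101b-3p ranked 77 by likeness to miR-101a-3p, and miR-101a-3p ranked 90 by likeness to miR-101b-3p. Most like miR-101a-3p were let-7b-5p (r 0.70), miR-203-3p of stratified epithelium (0.69), miR-29a-3p (0.67), miR-23a-3p (0.67) and miR-26b-5p (0.54). Without polar mTORi replicate 3 these were 0.55, 0.60, 0.62, 0.54 and 0.34. In the same order, Spearman rho over all 16 libraries was 0.55, 0.66, 0.62, 0.70 and 0.38. Most like miR-101b-3p were miR-200b-3p (0.68), miR-15a-5p (0.66), miR-200c-3p (0.64), miR-200a-3p (0.62) and miR-378a-3p (0.59). Their Spearman rho was 0.49, 0.58, 0.43, 0.65 and 0.33. The miR-200 members among them are known as keepers of epithelial identity. Without polar mTORi replicate 3, miR-200b-3p stayed the most like miR-101b-3p at 0.70, and miR-378a-3p was at 0.52.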

How the data were processed

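Small RNA was sequenced from 16 libraries of polar and mural blastocyst fragments. Per the labels' protocols, the ligated adapters carried unique molecular identifiers, PCR ran for 12 to 20 cycles with no size selection, and Illumina reads were 75 nt long. The deposited values are counts of each mature miRNA name, as whole numbers with no normalization. The genome build per the submitters' processing notes was GRCm38. Aligner, counter and miRNA annotation, and any collapsing of reads by identifier, were not given in the sources used here, so intervals cover counting error only. Sequences and positions came from RefSeq (GRCm38.p6) and gene features from GENCODE on GRCm38.

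Groups follow the labels for tissue and treatment. The members, the lists, the contrasts and the rule for named miRNAs were chosen with earlier results of these data known. Counts were fitted in R 4.3.3 with edgeR 4.0.16 over all libraries, with a mean for each group, TMM scaling and 10 residual degrees of freedom. filterByExpr (minimum count 10, minimum total 15) left 102 names, which held 92.8% to 97.6% of each library. Calls are two-sided quasi-likelihood tests at a Benjamini-Hochberg adjusted p under 0.05 over the tested names of a contrast. A prior count of 2 was used for log2 CPM. The SE of a difference is its size divided by the square root of F. The fit was tried on simulated counts with the same dispersion for all names. Changes were planted in mural diapaused libraries and were larger than the members' differences there. It therefore does not show how well differences of the members' size are found. Named miRNAs are the members, other names of their hairpins, seed relatives, the 5 tested miRNAs most like each member, the called and tested members of both lists, and the neighbours by mean level.

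Alternatives were RLE size factors, library size alone, no filter, a minimum count of 30, DESeq2 1.42.0, a fit of the compared groups alone, a replicate block and leaving out each library. The summed level of the pair, the part difference of the diapause effect under those settings and the likeness without polar mTORi replicate 3 were added after the data had been seen. No replicate pair of a group agreed within sampling noise: chi-square divided by its degrees of freedom was 2.00 to 21.7. Replicate numbers are shared between groups with no label to say what they mark. Deviations of polar and mural libraries with the same number correlated over 0.1 in all 3 mTORi pairs (0.11 to 0.18) and in 2 of 3 diapaused pairs. Same-numbered libraries of different treatments reached 0.23. Libraries with different numbers were not compared, so whether the numbers mark pairs was not tested. The labels do not say whether libraries came from separate embryos, so p-values measure the spread between these samples.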

Additional observations from a re-analysis of the deposited data

Results flagged for a closer look

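Between diapaused and WT libraries, the ratio of miR-101a-3p to miR-101b-3p moved in opposite directions in the parts, without overlap in either. Of all 5151 ratios between 2 tested miRNAs, 45.8% in polar and 44% in mural fragments did not overlap. Opposite directions without overlap occurred in 3.32%, and the pair was picked for this balance. From summed counts, the diapaused ratio was 0.299 times that of WT in polar fragments and 2.56 times that of WT in mural fragments. Seen across the blastocyst, the polar ratio was 0.398 times the mural one in diapaused and 3.41 times the mural one in WT blastocysts. This difference of ratios was not tested, and the share of all ratios that cross between polar and mural fragments was not counted.

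The level of miR-101a-3p alone showed the same crossing. Its mean CPM in diapaused libraries was 0.529 times that of WT in polar and 2.18 times that of WT in mural fragments, and its polar mean was 0.403 times the mural mean in diapaused and 1.66 times the mural mean in WT blastocysts. The diapause effect differed between the parts, polar minus mural, by -2.01 for miR-101a-3p (log2, SE 0.66) and by 1.15 for miR-101b-3p (SE 0.51). Neither difference was called by edgeR's quasi-likelihood test or by DESeq2, and both members were among 12 of the 102 tested miRNAs with an unadjusted edgeR p under 0.05. The members were chosen on these values, so nothing is read from that. In all, edgeR called 0 of the 102 tested miRNAs in this contrast. In diapaused against WT libraries, 17.6% of tested miRNAs were lower in polar and 32.4% higher in mural fragments without overlap, as miR-101a-3p was. In polar against mural libraries, 23.5% were lower in diapaused and 26.5% higher in WT blastocysts without overlap, again with miR-101a-3p among them. The share of single miRNAs that crossed in either way was not counted, so how common such a crossing is cannot be told.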

How the results depend on the processing

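With 1 library left out, the ratio of the pair ran from 0.371 to 0.524 in polar diapaused, 0.972 to 2.56 in polar mTORi, 1.44 to 1.56 in polar WT, 1.05 to 1.24 in mural diapaused, 1.31 to 1.49 in mural mTORi and 0.426 to 0.457 in mural WT. Only polar mTORi changed its side of 1, without replicate 3. The ratio does not depend on scaling, and the levels do. With library size alone, mean CPM was 7009 for miR-101a-3p in polar WT, 6837 for miR-101a-3p and 5933 for miR-101b-3p in mural diapaused, and 8803 for miR-101b-3p in polar diapaused, and with RLE size factors miR-101b-3p was at 6340 in mural diapaused. For mural diapaused minus WT, miR-101b-3p differed by -0.51 (RLE), -0.57 (library size), -0.54 (minimum count 30) and -0.52 (DESeq2), and the sum by 0.0011 (library size), 0.037 (minimum count 30) and 0.058 (DESeq2). For polar minus mural in diapaused blastocysts, library size alone gave -0.83, 0.57 and -0.016 for miR-101a-3p, miR-101b-3p and the sum, and a minimum count of 30 gave 0.41 and -0.18 for miR-101b-3p and the sum. For mural diapaused minus mTORi, miR-101b-3p was at -0.26 (minimum count 30) and -0.27 (compared groups alone). The part difference of the diapause effect on miR-101b-3p was 1.52 (library size) and 1.55 (minimum count 30). The cause of these shifts was not tested.

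Leaving out 1 library at a time gave 0.54 to 0.99 for miR-101b-3p and -0.22 to 0.16 for the sum in polar diapaused minus WT. For polar mTORi minus WT it gave 0.065 to 1.07, 0.22 to 0.67 and 0.32 to 0.82 for miR-101a-3p, miR-101b-3p and the sum. It gave -1.25 to -0.80 for miR-101b-3p in polar minus mural WT, and -0.66 to 0.41 and -0.55 to -0.17 for miR-101a-3p and miR-101b-3p in polar minus mural mTORi. For diapaused minus mTORi the ranges were -1.96 to -1.11 for miR-101a-3p in polar, and -0.79 to -0.23 and -0.42 to -0.027 for miR-101a-3p and miR-101b-3p in mural fragments. The part difference on miR-101b-3p ran from 0.93 to 1.56. Where 1 WT library was left, it was assumed to vary like the other groups.

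Counts of called miRNAs also moved. For polar diapaused minus WT, 8 were called, against 13 with RLE, 15 with DESeq2 and 0 to 6 with a library left out. For mural diapaused minus WT, 10 were called, against 5 with RLE, library size or a minimum count of 30, and 1 to 6 with a library left out. For polar mTORi minus WT the count of 23 became 0 in the compared groups alone and 3 to 25 with a library left out, and for mural mTORi minus WT the count of 12 became 21 and 6 to 9. In the Ezh2-linked list, the count for polar diapaused went from 0 to 1 with library size or DESeq2. For mural diapaused it went from 1 to 0 with a minimum count of 30 and was 0 to 1 with a library left out. For polar mTORi it went from 1 to 2 with library size or the replicate block (1 higher and 1 lower), to 0 with no filter or the compared groups alone, and was 0 to 1 with a library left out, where the 1 without polar mTORi replicate 3 was a lower call. For mural mTORi it went from 1 to 0 with RLE, to 2 with DESeq2 or the replicate block (1 higher and 1 lower), and was 0 to 1 with a library left out. In the Dnmt3-linked list, the count of 2 for polar diapaused was 0 with no filter, 1 with a minimum count of 30, the compared groups alone or the replicate block, and 0 to 1 with a library left out. The count of 3 for polar mTORi was 1 with no filter, 0 in the compared groups alone and 0 to 2 with a library left out, and the count of 2 for mural mTORi was 1 to 2.

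Same-numbered polar and mural libraries had deviations correlated at -0.011 to 0.36 over all treatments, and libraries of different treatments at -0.22 to 0.23, over 0.1 in 3 of 14 pairs. The WT value is 1 value, since deviations in a group of 2 mirror each other. Treatments were not taken as paired. With a replicate block, polar minus mural in mTORi blastocysts was -0.011 for miR-101a-3p and -0.21 for miR-101b-3p, with 3 miRNAs called higher and 2 lower as without it. With a replicate block, the diapaused minus WT difference was -1.04 for miR-101a-3p and 0.88 for miR-101b-3p in polar, and 0.99 and -0.27 in mural fragments, and edgeR called the same member in the same comparisons as without it. Depth limits what can be seen: polar WT held 41 counts of miR-101a-3p and 27 of miR-101b-3p in all.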
